A study of Mus musculus with 17 samples.

Results

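Chemokine ligands are small secreted proteins that guide leukocytes through tissue, and 10 of their genes were followed here through all the tables of a mouse Parkinson's disease study: Cxcl13, Cxcl10, Cxcl12, Cxcl16, Ccl2, Ccl3, Ccl4, Ccl5, Ccl9 and Ccl12. The genes were chosen by symbol, and all 10 were found among the 20328 genes of the RNA-seq table and among the 26650 rows of the single-cell RNA-seq (scRNA-seq) table. The mice were wild type, of the outbred ICR strain and 8 weeks old at surgery. The 6-OHDA group was injected on one side of the brain, in the substantia nigra, with 6-hydroxydopamine, a toxin that kills catecholamine neurons. The 6-OHDA+NDST3 group received the same toxin and, 5 days later, an AAV9 vector carrying human NDST3, a heparan sulfate modifying enzyme, under the CMV promoter, which is active in many cell types and so does not limit NDST3 to neurons. The sham group received no 6-OHDA. By the paper's methods lesioned mice were given either saline or NDST3, so 6-OHDA alone below means 6-OHDA and saline. The paper compared an eGFP vector with sham, but no library here came from mice given a vector without NDST3. Effects of the vector or its injection therefore cannot be told apart from those of NDST3. RNA-seq of brain tissue covered 2 sham libraries, 1 6-OHDA library and 2 6-OHDA+NDST3 libraries. The scRNA-seq table gave 1 6-OHDA library and 1 6-OHDA+NDST3 library, and the sham cells were not analysed here. The sources used here do not state whether the libraries of a group came from separate animals or from pools, so the p-values measure only the spread between these libraries.

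Chemokine ligands bind receptors of the G protein coupled class on leukocytes and are held on tissue surfaces by heparan sulfate. They are named by the spacing of their first cysteines as CXC or CC ligands. In the brain, microglia, astrocytes and endothelial cells make most of them, largely after injury, through NF-kB and interferon signalling, whereas Cxcl12 is made steadily by vessels and stroma.

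The 6 CC ligands lie on chromosome 11 of the GRCm38 build (mm10, the build the study names). Ccl2 (chr11:82035577-82037452) and Ccl12 (chr11:82101845-82103399) lie on the forward strand within a stretch of 67.8 kb. Ccl5 (chr11:83525778-83530518), Ccl9 (chr11:83572917-83578636), Ccl3 (chr11:83647843-83649378) and Ccl4 (chr11:83648624-83664683) filled a stretch of 138.9 kb. The annotated Ccl3 gene is on the reverse strand and overlaps Ccl4 on the forward strand. Cxcl10 (chr5:92346638-92348889, reverse strand) overlaps Art3, Cxcl16 (chr11:70454389-70459984, reverse strand) overlaps Zmynd15, and Ccl5 overlaps Gm32650, in each case on opposite strands. The library kit kept the strand, but whether the counting used it is not given in the sources used here, so a share of the reads of these 5 overlapping ligands cannot be told from those of the overlapping partner. Cxcl13 (chr5:95956939-95961068) and Cxcl12 (chr6:117168535-117181368) overlap no other annotated gene.

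The 250 bases before the transcription start were read from RefSeq (GRCm38.p6) for 6 of the 10 genes, and 4 are shown, those with the most matches to known motifs, that of the most changed ligand and that of the ligand that changed least after the lesion: Cxcl10 (chr5:92348890-92349139, reverse strand), Cxcl13 (chr5:95956689-95956938), Ccl9 (chr11:83578637-83578886, reverse strand) and Cxcl12 (chr6:117168285-117168534). Capitals mark matches, on either strand, to the interferon response core (TTTC, any 2 bases, TTTC), the AP-1 site TGANTCA, the TATA box TATAAA or the NF-kB motif. Overlapping matches run together.
Cxcl10: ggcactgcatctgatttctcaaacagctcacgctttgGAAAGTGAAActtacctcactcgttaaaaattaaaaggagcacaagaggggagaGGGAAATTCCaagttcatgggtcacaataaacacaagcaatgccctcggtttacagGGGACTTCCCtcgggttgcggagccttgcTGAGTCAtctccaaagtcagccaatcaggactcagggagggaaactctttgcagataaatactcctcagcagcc
Cxcl13: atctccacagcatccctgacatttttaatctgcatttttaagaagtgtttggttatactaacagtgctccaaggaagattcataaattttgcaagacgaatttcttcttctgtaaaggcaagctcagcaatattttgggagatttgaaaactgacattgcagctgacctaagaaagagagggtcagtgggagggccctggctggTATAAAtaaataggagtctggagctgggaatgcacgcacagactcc
Ccl9: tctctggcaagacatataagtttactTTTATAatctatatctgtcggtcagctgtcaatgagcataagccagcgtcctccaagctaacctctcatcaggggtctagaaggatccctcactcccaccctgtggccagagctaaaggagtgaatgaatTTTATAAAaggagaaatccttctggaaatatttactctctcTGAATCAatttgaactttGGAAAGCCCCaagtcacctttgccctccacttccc
Cxcl12: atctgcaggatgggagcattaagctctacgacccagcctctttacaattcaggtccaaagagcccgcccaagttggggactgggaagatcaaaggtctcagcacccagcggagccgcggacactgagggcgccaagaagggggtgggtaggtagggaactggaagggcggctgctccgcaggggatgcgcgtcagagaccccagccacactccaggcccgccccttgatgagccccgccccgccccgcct
Cxcl10 held 1 interferon response core, 2 NF-kB matches and 1 AP-1 site. Ccl9 held an AP-1 site, an NF-kB match and TATAAA on both strands, and Cxcl13 and Ccl12 held TATAAA alone. The windows of Cxcl12 and Ccl3 held none of these letters, and no window held the interferon gamma motif TTCNNNGAA. Over all 32841 mouse promoter windows of this length, 2.98% held the interferon response core, 3.9% the NF-kB motif, 6.75% the AP-1 site, 12.4% TATAAA and 7.02% TTCNNNGAA. The Cxcl12 window had a GC content of 64.4%, whereas those of the other 5 genes lay between 42% and 48.4%. These matches describe letters only.

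All 10 ligands had their highest RNA-seq level in the 6-OHDA library. The share of all genes that did so was not counted, so this is only a description of these 5 libraries. All 10 were higher in 6-OHDA than in sham mice at an adjusted p under 0.05. Every adjusted p given here is from the quasi-likelihood test of edgeR over 19300 genes, adjusted by Benjamini and Hochberg's method. Over all genes tested, 18.8% were higher and 17.1% lower by the same rule. The largest rise was that of Cxcl13, 51.5-fold, and the smallest was that of Cxcl12, 1.81-fold. The median log2 fold change of the 10 was 3.42, against -0.0024 over all genes tested. With a fold threshold, meaning a change of 2-fold or more and an unadjusted p under 0.05, 9 of the 10 passed as higher, all but Cxcl12, against 14.4% of all genes higher and 10.1% lower. The 6-OHDA group had a single library, so its spread was assumed to equal that of the other groups, and without either sham library no gene, and none of the 10 ligands, passed the adjusted threshold, although all 10 kept an unadjusted p under 0.05. Bulk RNA cannot tell more cells of a type from more RNA per cell.

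**Figure D1:**
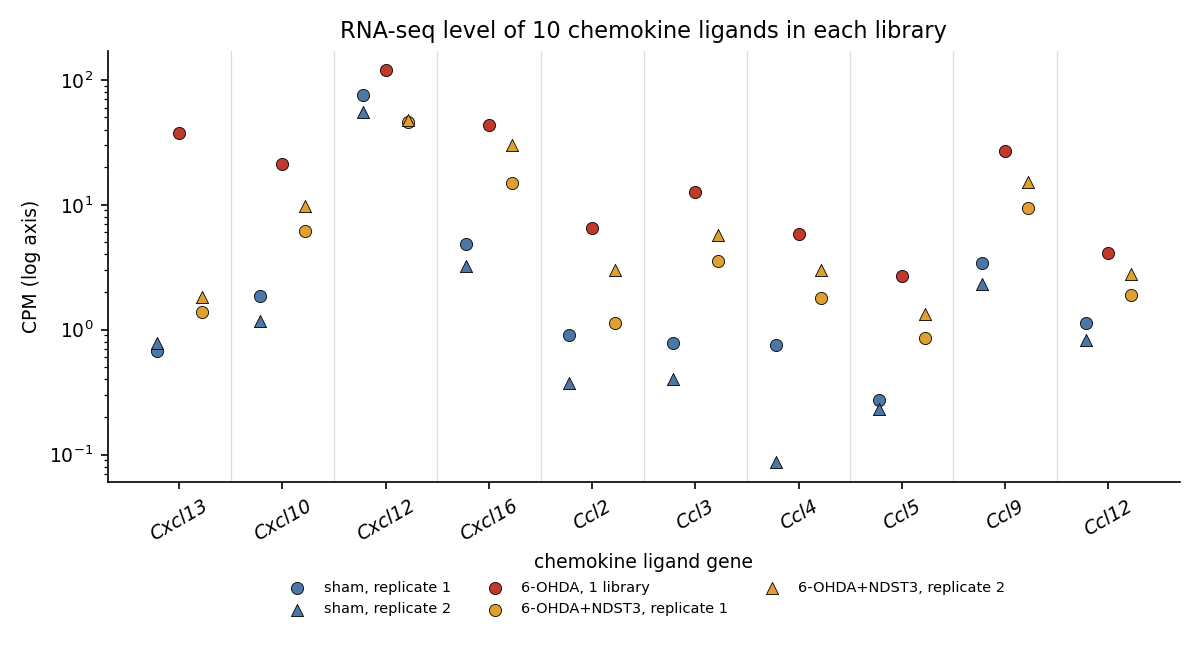
Normalised RNA-seq level in CPM (log axis) of each of the 10 ligands, with 1 point per library, coloured by group. The 6-OHDA point is the highest for every gene, and the 6-OHDA+NDST3 points lie between 6-OHDA and sham except for Cxcl12, where they lie below both sham points.

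Cxcl13, which attracts B cells through Cxcr5, was nearly absent from sham brain. It had 35 and 54 reads in the sham libraries, 1956 reads in the 6-OHDA library and 83 and 109 reads in the 6-OHDA+NDST3 libraries, corresponding, once scaled to each library's total (CPM, as below), to 0.680, 0.782, 37.9, 1.39 and 1.83 CPM. The 6-OHDA library stood far above the other 4. The log2 fold change between 6-OHDA and sham was 5.69 ± 0.25 (SE), with an adjusted p of 0.00823, and was the fifth highest of all genes tested (rank 5).

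Cxcl10, an interferon-inducible ligand of Cxcr3 on activated T cells, had 1.86 and 1.17 CPM in the sham libraries, 21.3 CPM in the 6-OHDA library, and 6.21 and 9.82 CPM in the 6-OHDA+NDST3 libraries. The NDST3 libraries were well above sham and well below the 6-OHDA library. Its log2 fold change in 6-OHDA over sham was 3.81 ± 0.39 (SE), with an adjusted p of 0.00823.

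Cxcl16, a membrane-anchored ligand of Cxcr6, had 4.81 and 3.23 CPM in sham, 43.6 CPM in 6-OHDA, and 14.8 and 30.01 CPM in 6-OHDA+NDST3. The 2 NDST3 libraries differed from each other 2.02-fold, more than the sham libraries did. The log2 fold change in 6-OHDA over sham was 3.44 ± 0.46 (SE), with an adjusted p of 0.00914.

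Cxcl12, the ligand of Cxcr4 and of the scavenging receptor Ackr3, behaved differently from the rest. It had 76.1 and 55.4 CPM in sham, 119 CPM in 6-OHDA, and 46.1 and 47.8 CPM in 6-OHDA+NDST3. Its NDST3 libraries were below both sham libraries, and it was the only one of the 10 for which that held. The rise in 6-OHDA over sham had a log2 fold change of 0.86 ± 0.20 (SE) and an adjusted p of 0.0285.

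Ccl3 and Ccl4, both macrophage inflammatory proteins, had the highest log2 fold changes among the 6 CC ligands of the set with all libraries in the fit. The place of Ccl4 depended on which sham library was kept, as given below. Ccl3 had 0.777 and 0.405 CPM in sham, 12.6 CPM in 6-OHDA, and 3.54 and 5.70 CPM in 6-OHDA+NDST3, a log2 fold change in 6-OHDA over sham of 4.43 ± 0.48 (SE, adjusted p 0.00823). Ccl4 had 39 and 6 reads in sham, 299 in 6-OHDA, and 107 and 181 in 6-OHDA+NDST3. The sham libraries thus differed 8.71-fold in CPM for Ccl4, and its log2 fold change of 3.82 had the largest error of the 10, 1.02 (SE, adjusted p 0.0417). Without the sham library of 6 reads the log2 fold change of Ccl4 was 2.93, and without the other sham library it was 6.02.

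Ccl2 and Ccl12 are both ligands of Ccr2, the receptor by which monocytes are recruited. Ccl2 had 0.912 and 0.377 CPM in sham, 6.53 CPM in 6-OHDA, and 1.14 and 2.999 CPM in 6-OHDA+NDST3. Ccl12 had 1.13 and 0.826 CPM in sham, 4.11 CPM in 6-OHDA, and 1.88 and 2.78 CPM in 6-OHDA+NDST3. The lower NDST3 value of Ccl2 was close to its higher sham value. The log2 fold changes in 6-OHDA over sham were 3.36 ± 0.74 (SE) for Ccl2 and 2.08 ± 0.39 (SE) for Ccl12, with adjusted p of 0.0252 and 0.0169.

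Ccl5, a ligand made by T and NK cells, was the lowest of the 10 by length-normalised level in the 6-OHDA library. It had 14 and 16 reads in sham, 138 in 6-OHDA, and 51 and 79 in 6-OHDA+NDST3. Its log2 fold change in 6-OHDA over sham was 3.40 ± 0.44 (SE, adjusted p 0.00882). Of 8 T cell markers 3 were listed in the RNA-seq table, and their summed level was 3.80 and 3.14 CPM in sham, 3.35 CPM in 6-OHDA, and 3.04 and 5.45 CPM in 6-OHDA+NDST3. Most of that sum was Trac, which had a log2 fold change of -0.90 in 6-OHDA over sham (adjusted p 0.136), whereas Cd4 had 1.91 (adjusted p 0.127) and Themis 2.04 (adjusted p 0.101), so the 3 markers did not move together and none passed. Cd3e, Cd3g, Cd3d and Cd8a were not among the listed genes.

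Ccl9, a rodent ligand of Ccr1, had 3.42 and 2.30 CPM in sham, 26.8 CPM in 6-OHDA, and 9.42 and 15.1 CPM in 6-OHDA+NDST3. Its 6-OHDA+NDST3 values lay between those of sham and 6-OHDA. The log2 fold change in 6-OHDA over sham was 3.23 ± 0.36 (SE, adjusted p 0.00838). Of its 50-base transcript stretches 1.97% occur in other genes too, whereas the other 9 ligands share none.

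Levels of different genes were compared in FPKM, which divides by transcript length. In both sham libraries Cxcl12 was the highest ligand, at 20.4 and 12.2 FPKM, followed by Cxcl16 at 2.89 and 1.83 FPKM, and the other 8 were between 0.0821 and 1.99 FPKM. In the 6-OHDA library Cxcl12 remained first at 41.3 FPKM. Cxcl13 stood second there at 30.7 FPKM, then Cxcl16 at 25.9, Cxcl10 at 18.2 and Ccl3 at 15.03 FPKM. Ccl9, Ccl4, Ccl2 and Ccl12 lay between 7.19 and 8.40 FPKM, closer together than the sham replicates of any of them, so no order among them can be given, and Ccl5 was at 4.73 FPKM. In both 6-OHDA+NDST3 libraries Cxcl13 was the last of the 10, at 1.10 and 1.51 FPKM. Cxcl12 led in the first of these libraries, at 10.9 FPKM, and Cxcl16 in the second, at 18.0 FPKM against 11.6 FPKM for Cxcl12.

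NDST3 treatment was compared with 6-OHDA alone. All 10 ligands had negative log2 fold changes, and 2 of them, Cxcl13 and Cxcl12, fell at an adjusted p under 0.05, where 6.59% of all genes fell and 9.06% rose. Cxcl13 fell by 4.55 ± 0.23 on the log2 scale (SE, adjusted p 0.032), 23.5-fold, and ranked 5 from the lowest of all genes. Cxcl12 fell by 1.34 ± 0.20 on the log2 scale (SE, adjusted p 0.0335), 2.53-fold. At the fold threshold 6 of the 10 were lower, against 8.37% of all genes lower and 7.3% higher. The other 8 had log2 fold changes between -1.65 (Ccl2) and -0.82 (Ccl12), and their adjusted p lay between 0.0632 and 0.382. Both calls were lost in smaller fits: without either sham library, without the first 6-OHDA+NDST3 library, or with these 2 groups alone, none of the 10 passed the adjusted threshold, and their log2 fold changes stayed negative.

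**Figure D2:**
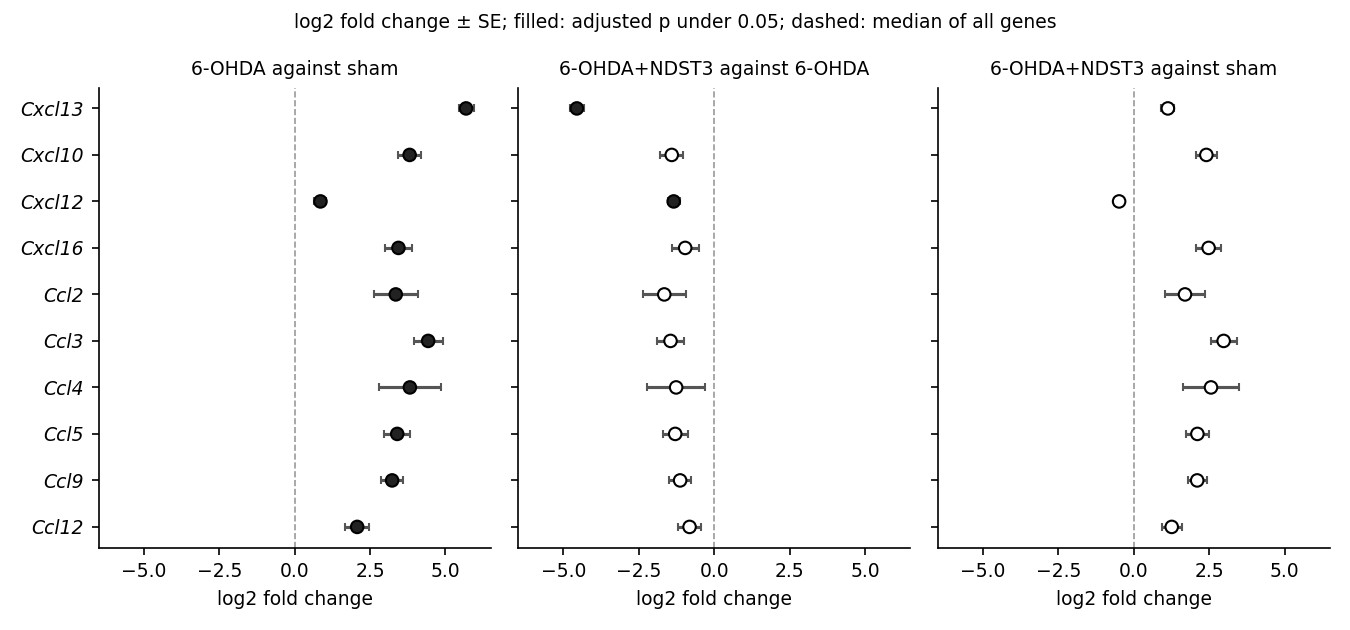
Log2 fold change (horizontal axis) with its standard error for each ligand in the 3 comparisons, with filled points for an adjusted p under 0.05 and a dashed line at the median of all genes. All 10 points are filled in 6-OHDA against sham, Cxcl13 and Cxcl12 are filled in 6-OHDA+NDST3 against 6-OHDA, and none is filled in 6-OHDA+NDST3 against sham, where 9 points lie above 0.

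NDST3-treated brains were compared with sham. None of the 10 ligands passed the adjusted threshold, and 0% of all genes did, the lowest adjusted p over all genes being 0.103. All 10 had an unadjusted p under 0.05 in edgeR, as did 2744 genes in all, and DESeq2 called 6 of the 10 higher, where it called 4.85% of all genes higher. For 9 ligands both 6-OHDA+NDST3 libraries were above both sham libraries. The share of all genes with that order was not counted, so it is only a description of these libraries. The same 9 ligands were higher at the fold threshold, against 4.78% of all genes higher and 1.08% lower. Ccl3 had 2.98 ± 0.43 (log2 fold change, SE, adjusted p 0.152), Ccl4 had 2.56, Cxcl16 had 2.48 and Cxcl10 had 2.41. The value of Ccl4 was 4.76 without sham replicate 1 and 1.67 without sham replicate 2, so no order of these ligands is given. Cxcl13, which had the largest value in both other comparisons, had 1.13 ± 0.22 (SE, adjusted p 0.163). Cxcl12 was the one ligand below sham, with a log2 fold change of -0.48 ± 0.17 (SE, adjusted p 0.309). The 3 comparisons share libraries and are not independent of each other.

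The second 6-OHDA+NDST3 library was higher than the first for all 10 ligands, from 1.04-fold for Cxcl12 to 2.63-fold for Ccl2. Sham replicate 1 was higher than replicate 2 for 9 of the 10, all but Cxcl13. The second 6-OHDA+NDST3 library also differed in tissue makeup, with a summed level of 6 choroid plexus markers of 2084 CPM against 455 to 540 CPM in the other 4 libraries, and its part in the ligand values was not tested. Leaving this library out gave 5 ligands that fell with NDST3 in place of 2, where 7.56% of all genes fell. Depth was between 51003699 and 70533326 counts per library, and scaling factors were between 0.979 and 1.02. Of 8 dopaminergic neuron markers all 8 were lower in 6-OHDA than in sham, against 17.1% of all genes, a check on the lesion.

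Markers of several cell types rose with the ligands. The summed level of 9 listed microglia markers was 515 and 387 CPM in sham, 2858 CPM in 6-OHDA, and 1040 and 1648 CPM in 6-OHDA+NDST3, and 8 of the 9 rose in 6-OHDA over sham. The summed level of 3 listed neutrophil markers was 11.5 and 7.92 CPM in sham, 105 CPM in 6-OHDA, and 35.1 and 64.7 CPM in 6-OHDA+NDST3. Both sums had the order of groups and of replicates that 8 of the ligands had. The sum of 8 astrocyte markers was 5166 and 4230 CPM in sham, 11450 CPM in 6-OHDA, and 6513 and 7282 CPM in 6-OHDA+NDST3. Of these 8, 5 were higher in 6-OHDA over sham. Beside the microglia and astrocyte counts, 18.8% of all genes rose. The sum of 8 monocyte or macrophage markers was 39.3 and 22.7 CPM in sham and 91.0 CPM in 6-OHDA, but its 6-OHDA+NDST3 values, 20.9 and 36.1 CPM, did not lie above both sham values, unlike those of 9 ligands. The part of these cell types in the ligand changes was not tested, but each ligand could be set against the microglia sum of its own library.

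Set against the microglia markers, Cxcl13 still stood out. It had 1.32 and 2.02 CPM per 1000 CPM of microglia markers in sham, 13.3 in 6-OHDA, and 1.34 and 1.11 in 6-OHDA+NDST3, a 7.94-fold ratio of 6-OHDA to the sham mean. Ccl3 had a ratio of 3.45 and Cxcl10 of 2.24. Ccl4 had a ratio of 2.39, but its sham libraries, at 1.47 and 0.225 against 2.03 in 6-OHDA, lay too far apart on this scale to place it. Cxcl16, Ccl2, Ccl5 and Ccl9 had ratios between 1.49 and 1.73. Ccl12 and Cxcl12 were lower against the microglia markers in 6-OHDA than in sham, with ratios of 0.665 and 0.287. Between the 6-OHDA library and the mean of the NDST3 libraries, 8 ligands had ratios from 0.778 to 1.22 on this scale, Ccl2 had 0.639 and Cxcl13 had 0.0924.

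**Figure D3:**
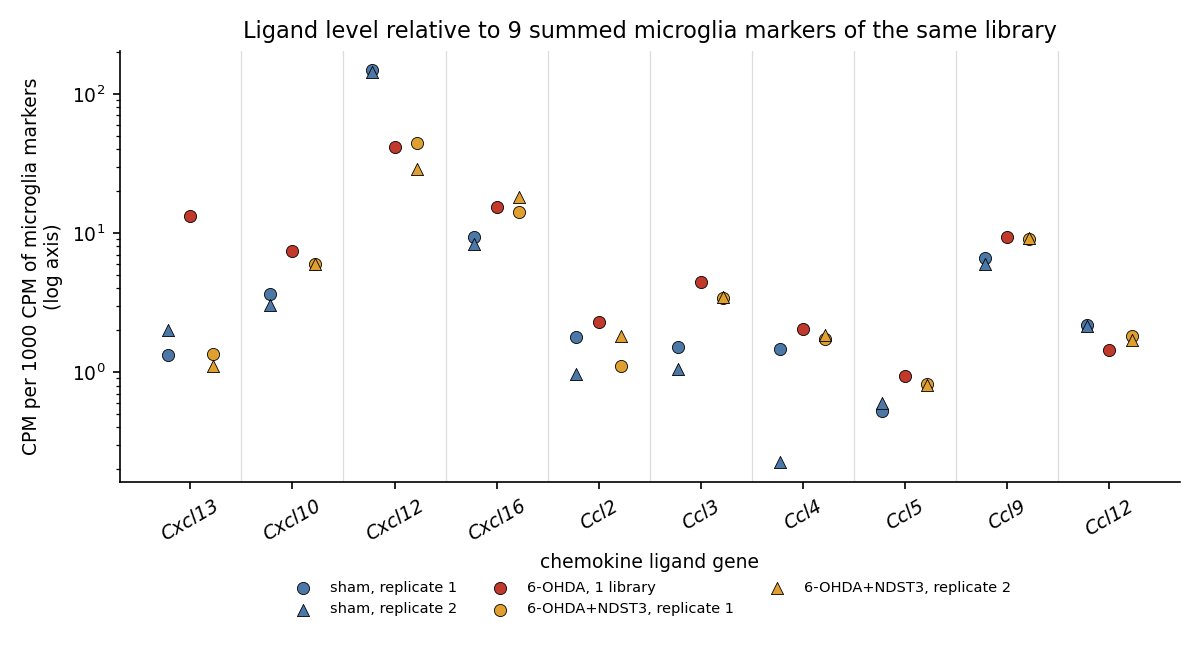
CPM of each ligand per 1000 CPM of the 9 summed microglia markers in the same library (log axis), with 1 point per library, coloured by group. The 6-OHDA point of Cxcl13, at 13.3, lies far above its other 4 points, from 1.11 to 2.02, whereas for Ccl9 the 6-OHDA and 6-OHDA+NDST3 points lie between 9.06 and 9.38.

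Cxcl12 and the vascular marker sums were all highest in 6-OHDA, but only Cxcl12 had both 6-OHDA+NDST3 libraries below both sham libraries. The summed level of 7 endothelial markers was 300.5 and 259 CPM in sham, 397 CPM in 6-OHDA, and 237 and 264 CPM in 6-OHDA+NDST3, and 8 mural or fibroblast markers summed to 510 and 329 CPM in sham, 1513 CPM in 6-OHDA, and 265 and 356 CPM in 6-OHDA+NDST3. Of the 7 endothelial markers, 4 rose in 6-OHDA over sham and 4 fell with NDST3. Of the 8 mural or fibroblast markers, 7 rose in 6-OHDA over sham and 7 fell with NDST3. Over all genes, 18.8% rose and 6.59% fell in these comparisons. Per 1000 CPM of the endothelial markers Cxcl12 was at 253 and 214 CPM in sham, 300.2 CPM in 6-OHDA, and 195 and 181 CPM in 6-OHDA+NDST3. Its 6-OHDA value thus remained the highest and its NDST3 values the lowest on this scale, with a ratio of 0.626 between them. Per 1000 CPM of the mural or fibroblast markers the order was another, with 149 and 168 CPM in sham, 78.7 CPM in 6-OHDA, and 174 and 134 CPM in 6-OHDA+NDST3, so that the 6-OHDA value was the lowest. The part of either cell type in the Cxcl12 values was not tested.

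The receptors of the ligands were listed in part. Of 18 chemokine receptors 10 were listed and tested, and 6 rose in 6-OHDA over sham, against 18.8% of all genes, among them Cxcr4 (log2 fold change 3.46), Ccr2 (3.40), Ccr1 (3.29), Cxcr2 (3.05) and the fractalkine receptor Cx3cr1 (2.87). Cxcr3, the Cxcl10 receptor, had 2.51 ± 0.77 (SE, adjusted p 0.0602). With NDST3, 3 receptors fell against 6-OHDA alone, where 6.59% of all genes fell. Among the 3 were Ccr1, by 2.71, and Ccr2, by 2.40 on the log2 scale, whereas Cxcr4 had -0.98 (adjusted p 0.158). The receptors of Cxcl13 and Cxcl16, Cxcr5 and Cxcr6, were not among the genes listed. Ackr3, the scavenger of Cxcl12, rose in 6-OHDA by a log2 fold change of 0.52 (adjusted p 0.0482), as did the atypical receptors Ccrl2 (2.17) and Ackr1 (3.58), and Ackr1, which is made by venule endothelium, fell with NDST3 by 3.68.

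Of 28 other chemokine ligands 19 were listed and tested. In 6-OHDA over sham 5 rose, Ccl6 (log2 fold change 4.50), Cxcl9 (4.205), Ccl8 (4.07), the platelet ligand Ppbp (2.45) and Ccl11 (2.33). Ccl27a fell by 0.88. Over all genes tested, 18.8% rose and 17.1% fell. The median of the 19 was 1.56, against 3.42 for the 10 ligands. With NDST3 Ppbp was the only one of the 19 that fell against 6-OHDA alone, by 2.55, and none rose. Over all genes, 6.59% fell and 9.06% rose. The counts of the 19 are not read as particular to them. Of 19 listed inducers of chemokine genes, cytokines, Toll-like receptors and their transcription factors, 18 rose in 6-OHDA over sham, against 18.8% of all genes. Tlr7 (3.99), Il1b (3.69) and Tlr2 (3.57) led. With NDST3 4 fell, Tlr4, Myd88, Rela and Relb, against 6.59% of all genes. Stat2 was the inducer that did not pass, with 0.39 (adjusted p 0.0859).

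The scRNA-seq table held 9 clusters, with 1 mean per cluster and library, read here as a mean over cells of the natural log of 1 plus a normalised count. With 1 library per group no test was possible, and differences are on this scale and are not fold changes. Clusters are called by number, and a likeness is given only from the marker lists used here. The study's names were not in the table, but it describes clusters 4 and 8 as dopaminergic neurons or progenitors and cluster 9 as undefined. It gives cluster 1 as leukocytes, 2 as astrocytes, 3 as monocytes, 5 as fibroblasts, 6 as microglia and 7 as endothelial. The likenesses of clusters 4, 8 and 9 here differ from those names, and the reason was not tested. Cluster 6 was microglia-like, with 10 of 10 microglia markers above a mean of 0.1 and 8 of them higher there than in any other cluster. Cluster 7 was endothelial-like (7 of 7 markers), clusters 4 and 8 were T cell-like (8 of 8 in each, with 1 of 8 dopaminergic neuron markers above 0.1), cluster 9 was B cell-like (8 of 8) and cluster 5 mural- or fibroblast-like (5 of 8). Cluster 3, led by Apoe, C1qa and C1qb, held all 10 microglia markers above 0.1 and had the highest mean of the other 2, and cluster 1, led by Il1b, Tyrobp and Cd14, had the highest means of all 7 neutrophil markers. Cluster 2 held astrocyte, oligodendrocyte and choroid plexus markers together. It was also the highest cluster for 4 of the 8 mural or fibroblast markers, as cluster 5 was for the other 4. Of 7 neuron markers 5 were highest in cluster 2, though only 1 was above 0.1 there. Clusters 1, 2 and 3 were given no name. The T cell-like cluster 8 also held 9 of the 10 microglia markers above 0.1. The study left out cells with very many detected genes, in part to limit multiplets such as doublets. With cluster means alone no remaining doublet could be removed here.

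Of the 90 pairs of a ligand and a cluster, 51 had a mean above 0.1 averaged over the 2 libraries. Clusters 3 and 6 held 8 ligands each and cluster 9 held 2. Cluster 6 was the highest cluster for 5 ligands (Cxcl10, Ccl2, Ccl3, Ccl4 and Ccl12), cluster 3 for Cxcl16 and Cxcl13, cluster 4 for Ccl5, cluster 1 for Ccl9 and cluster 7 for Cxcl12. The same cluster was highest in both libraries for all 10 ligands. Clusters were formed on these cells, so these places are descriptions. Ccl9 was itself one of the genes by which the study named the cluster where it was highest.

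**Figure D4:**
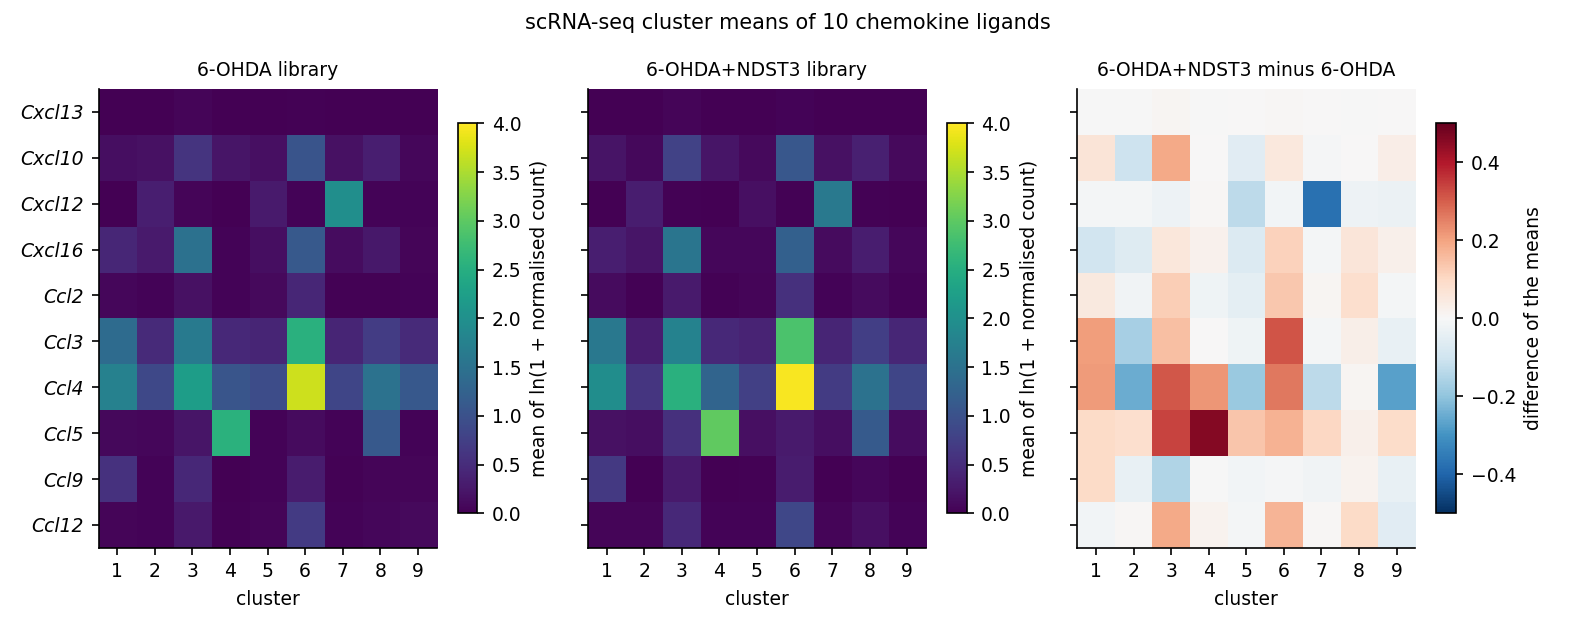
Cluster means of each ligand (colour, mean of ln(1 + normalised count)) in the 6-OHDA and the 6-OHDA+NDST3 library, and the difference of the 2 means, for clusters 1 to 9 (horizontal axis). Ccl4 and Ccl3 are brightest in cluster 6, Ccl5 in cluster 4 and Cxcl12 in cluster 7, and the strongest differences are 0.461 for Ccl5 in cluster 4 and -0.372 for Cxcl12 in cluster 7.

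Ccl4 had the highest means of the 10. In cluster 6 its mean was 3.70 in the 6-OHDA library and 3.96 in the 6-OHDA+NDST3 library, and only C1qa exceeded the other clusters there by more. Ccl3 had 2.55 and 2.86 in cluster 6. Cluster 3 came next for both, with 2.23 and 2.54 for Ccl4 and 1.63 and 1.78 for Ccl3, and then cluster 1, with 1.75 and 1.96 for Ccl4 and 1.40 and 1.60 for Ccl3. Both genes were above 0.1 in every cluster. Transformed back, the mean of Ccl4 in clusters 2, 5 and 7 was 2.45% to 2.94% of that in cluster 6, that of Ccl3 was 3.54% to 3.69%, and that of the microglial gene Cx3cr1 was 2.57% to 3.56%. The level of Ccl4 in those 3 clusters was thus close to background, which free RNA in droplets can give, and that of Ccl3 was at it in cluster 2 and somewhat above it in clusters 5 and 7. In the T cell-like cluster 4 both stood further above it, at 4.93% for Ccl4 and 4.27% for Ccl3 against 1.68% for Cx3cr1, and in the B cell-like cluster 9 they were at 3.61% and 4.09% against 2.32%.

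Cxcl10 had 1.03 and 1.09 in cluster 6 and 0.604 and 0.794 in cluster 3. In the T cell-like cluster 8 it had 0.342 and 0.344, which transformed back was 21.6% of cluster 6, above the 5.98% of Cx3cr1 there. Ccl12 had 0.679 and 0.850 and Ccl2 0.422 and 0.555 in cluster 6, and in cluster 3 Ccl12 had 0.276 and 0.465 and Ccl2 0.172 and 0.296. In all other clusters both were at or below 0.165. Ccl2 and Ccl12, neighbours on chromosome 11, were each among the 3 genes most like the other over the 18 cluster means (Pearson's r = 0.982), a description over means that share libraries and depth.

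Cxcl16 had 1.495 and 1.55 in cluster 3 and 1.11 and 1.23 in cluster 6, then 0.432 and 0.338 in cluster 1. The genes most like it among 4731 were Aif1, Hexa and Ctsa (r = 0.988, 0.983 and 0.983), a microglial marker and 2 lysosomal enzymes. Ccl9 had 0.567 and 0.661 in cluster 1, 0.440 and 0.289 in cluster 3 and 0.306 and 0.302 in cluster 6, and was most like Igsf6, Cln3 and Hcar2 (r = 0.986, 0.98 and 0.98). Ccl5 had 2.56 and 3.02 in cluster 4 and 1.11 and 1.13 in cluster 8, ranked first of all genes in its excess over the other clusters in cluster 4, and was most like the cytotoxic genes Nkg7, Fasl and Klrc2 (r = 0.987, 0.984 and 0.983). Ccl3 and Ccl4 were most like genes of inhibitory leukocyte receptors, Cd33 (r = 0.989) for Ccl3 and Lair1 (r = 0.981) for Ccl4, and Ccl3 itself came next for Ccl4 (r = 0.979). Cxcl10 was most like Tent5c (r = 0.984).

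Cxcl12 had 1.98 in the 6-OHDA and 1.61 in the 6-OHDA+NDST3 library in the endothelial-like cluster 7. Next came cluster 2, with 0.338 and 0.328, and the mural- or fibroblast-like cluster 5, with 0.294 and 0.163. Its pattern was most like those of Ltbp4, Tnfrsf19 and Shroom4 (r = 0.996, 0.995 and 0.994). The difference of -0.372 in cluster 7 was the third lowest (rank 3) of 7656 genes with a mean above 0.1 there, of which 0.34% lay below -0.15. In bulk RNA-seq, Cxcl12 was also lower with NDST3 than with 6-OHDA alone, as given above.

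Cxcl13 was hardly found in the scRNA-seq. Its highest means were 0.051 and 0.061, in cluster 3, and 0.028 and 0.033, in cluster 6, and the other 7 clusters had at most 0.014. In bulk RNA-seq it had the second highest FPKM of the 10 ligands in the 6-OHDA library. Its pattern over the 18 means was most like that of Syngr1 (r = 0.952), at levels where little can be read from it.

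Between the scRNA-seq libraries, 56 of the 90 pairs of a ligand and a cluster were above 0.1 in at least 1 library. Of these pairs, 35 were higher and 20 lower with NDST3. Over all genes above 0.1, the share higher ran from 43.2% in cluster 9 to 60.2% in cluster 7. In the microglia-like cluster 6, 7 of 8 such ligands were higher with NDST3, by 0.051 (Cxcl10) to 0.314 (Ccl3), and Ccl9 differed by -0.004. Over all genes above 0.1 in cluster 6, 55.9% were higher and 0.849% were higher by more than 0.15. Cluster 3 also had 7 of 8 ligands higher, by 0.058 (Cxcl16) to 0.335 (Ccl5), with Ccl9 at -0.151. Over all genes above 0.1 in cluster 3, 55.9% were higher. The levels of Ccl5 in clusters 3 and 6 were low beside that in cluster 4, as given below. In clusters 1 and 8, 6 of 7 and 7 of 7 were higher, where 51.7% and 55.5% of all genes were. In cluster 4 Ccl3, Ccl4 and Ccl5 were higher and Cxcl10 had the same rounded mean in both libraries, where 52.9% of all genes were higher. In cluster 9, 2 were higher and 2 lower, against 43.2% of all genes higher. Clusters 2, 5 and 7 went the other way, each with 1 ligand higher and 5 lower of the 6 above 0.1. Of all genes 53%, 46.8% and 60.2% were higher there. Some differences were very small, such as 0.002 for Cxcl10 in cluster 8 and -0.006 for Cxcl10 in cluster 7. The 7 ligands higher in clusters 3 and 6, Cxcl10, Cxcl16, Ccl2, Ccl3, Ccl4, Ccl5 and Ccl12, had negative log2 fold changes with NDST3 in bulk RNA-seq. None of them passed the adjusted threshold there. The share of cells in each cluster was not analysed here, and the means per cell and the bulk level measure different things.

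Ccl5 was higher with NDST3 in all 9 clusters, by 0.461 in cluster 4, 0.335 in cluster 3, 0.175 in cluster 6 and between 0.024 and 0.138 in the other 6. Transformed back, it went from 11.9 to 19.4 in cluster 4. With NDST3 it was at 0.754 in cluster 3, 0.335 in cluster 6 and 0.139 to 0.206 in clusters 1, 2, 5, 7 and 9. Free RNA from cluster 4 cells can give low levels that rise with that cluster, and its part was not tested. In cluster 4, 4.44% of genes were higher by more than 0.15. Ccl4 was lower with NDST3 in clusters 2, 5, 7 and 9, where it was at its lowest means, and higher in clusters 1, 3, 4 and 6. Ccl3 differed by 0.210 in cluster 1 and -0.165 in cluster 2. None of these differences has a replicate.

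Several receptors of these ligands lay in lymphoid clusters or in cluster 1. Cxcr3 (highest mean 0.347), Cxcr6 (1.49) and Ccr2 (0.506) were highest in the T cell-like cluster 4, and Cxcr5 (0.950) in the B cell-like cluster 9. Ccr1 (1.11), Cxcr2 (0.618) and Cxcr4 (1.07) were highest in cluster 1. Ackr3 was highest in cluster 5 (0.723) and next in cluster 7 (0.594), the clusters beside Cxcl12. Of the other ligands Cxcl2 (2.45) and Ccl6 (1.26) had their highest means in cluster 1, and Cxcl2 was above 0.1 in every cluster.

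None of the 10 ligands was named in the H3K27ac CUT&RUN or ATAC-seq table. These tables list regions that lie, by the distances they give, within 1000 bases of a transcription start, 11424 for H3K27ac and 3582 for ATAC-seq, and name 34.4% and 9.82% of the genes tested in RNA-seq. Absence from such a list is no measure of signal at these genes. The region coordinates did not match the GRCm38 starts of the genes they name, with 3.37% of H3K27ac and 9.11% of ATAC-seq regions within 1000 bases, so no region could be placed by position beside the ligand genes.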

How the data were processed

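RNA was measured in 5 brain libraries (TruSeq Stranded mRNA, poly-A selected). The authors trimmed reads, aligned them to mm10 with HISAT2 and quantified genes with StringTie. They deposited gene counts and FPKM. The deposited single-cell values are means per cluster of the natural log of 1 plus the count normalised to 10000 UMIs, after Cell Ranger and Seurat; this unit is not stated in the table and was read from the values. The authors deposited H3K27ac and ATAC-seq signal per region, with the 2 H3K27ac libraries of a group pooled; no ligand was listed there. Columns of the authors' own fold changes and p-values were not used.

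Counts were tested with edgeR 4.0.16 (R 4.3.3; TMM, filterByExpr, quasi-likelihood, all 5 libraries in 1 fit with 2 residual degrees of freedom; 19300 of 20328 genes kept; Benjamini-Hochberg over all). CPM are counts per 1000000 counts of a library, TMM-scaled. The biological coefficient of variation was 20.3%. As alternatives, limma 3.58.1 was run on log2(FPKM + 1) and DESeq2 1.42.0 on the counts. The main test was also run on simulated data. For 6-OHDA against sham it recovered 81.3% of 198 changed genes, with 28 false calls. For 6-OHDA+NDST3 against 6-OHDA it recovered 81% of 200, with 20 false calls. For 6-OHDA+NDST3 against sham it recovered 87.4% of 199, with 24 false calls. In each comparison the false calls were a larger share of the calls than the adjusted threshold is set to allow. Every listed gene had a count of at least 1 in every library, so counts of 0 did not occur.

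All 10 ligands were named. From the lists of other ligands, receptors and inducers, genes at an adjusted p under 0.05 were named, up to 8 per list and comparison; receptors of the ligands were named whether or not they passed. Some genes are not reported here. Stat2 and, in the scRNA-seq, Cxcl2 and Ccl6 were named after their values were seen. Likeness was ranked among genes with a cluster mean above 0.5. In the scRNA-seq table, 4 rows with duplicated names were left out. The ligands, lists and tests were chosen with earlier results of these data known.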

Additional observations from a re-analysis of the deposited data

Results flagged for a closer look

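The difference between the 6-OHDA+NDST3 and the 6-OHDA library of the scRNA-seq ran in opposite directions in different clusters for 2 ligands, by more than 0.15 on the deposited scale each way. The difference between clusters was not tested, since each group had 1 library. Ccl4 was higher with NDST3 in cluster 1 (0.213), cluster 3 (0.31), cluster 4 (0.22) and cluster 6 (0.265), and differed by -0.25 in cluster 2, -0.186 in cluster 5 and -0.271 in cluster 9. Ccl3 was higher in cluster 1 (0.21) and cluster 6 (0.314) and differed by -0.165 in cluster 2. The negative values of both genes fell in clusters where their level was at most 3.61% of that in cluster 6. No group had the 4 samples needed to look for a library far from the others.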

How the results depend on the processing

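No ligand changed direction in any comparison under any alternative. In 6-OHDA against sham, 6 of the 10 ligands and 1796 genes passed with the replicate number as a block, against 10 and 6916; leaving out 1 library gave 0 to 10 ligands and 0 to 7140 genes, the 0 in both cases without either sham library. In 6-OHDA+NDST3 against 6-OHDA, the 2 ligands became 5 with DESeq2 (5194 genes against 3019), 6 at the fold threshold, 0 with the block or with these 2 groups alone (0 genes in each), and 0 to 5 when 1 library was left out (0 to 3163 genes), the 5 without 6-OHDA+NDST3 replicate 2. In 6-OHDA+NDST3 against sham, the 0 ligands became 6 with DESeq2 (1023 genes), 9 at the fold threshold (1131 genes) and 0 to 1 without 1 library (0 to 111 genes). For that comparison same-numbered libraries deviated in opposite ways (r = -0.432 across genes), and the crossed pairing, added after seeing the data, gave 4 ligands and 791 genes. The replicate numbers are not stated to mark a shared batch, so the block was not preferred. Cluster counts above 0.1 were 47 to 54 of 90 in either library alone and 37 at a limit of 0.25. Other settings for H3K27ac and ATAC-seq could not give a value, because no ligand was listed. The 6-OHDA library has no replicate in 2 of the 3 comparisons, and Ccl4 rests on 6 reads in 1 sham library.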
